A study of Mus musculus with 8 samples.

Results

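The 4C profile of the *Ikzf1* promoter in DN3 thymocytes was compared with that in ES cells, with 1 library of each. Circularized chromosome conformation capture (4C) counts how often each restriction fragment of a chromosome was ligated to a chosen bait fragment in crosslinked nuclei. The fragments described are the 295384 DpnII fragments of chromosome 11 whose midpoint lay over 15 kb from the bait, of 295446 listed in all. Membership was set by position alone, with no read count in the rule. The series held 8 libraries, and its 4 other 4C profiles, from the P5424 T cell precursor line, are given only as ranges. Of these 4, 2 carry the IkE120 deletion and 2 were stimulated with PMA and ionomycin.

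DN3 cells were sorted as CD4-/CD8-/CD44lo/CD25+ thymic T cells of WT c57/Bl6 mice aged 4 to 5 weeks. The study's text calls the sorted cells CD44+, and the number of mice pooled is not given in the sources used here. J1 ES cells were grown on irradiated feeder fibroblasts with LIF and then passaged without feeders. Neither preparation carried a deletion or was stimulated. The nuclei of ES cells were permeabilized more mildly, at a lower SDS concentration and temperature, than those of DN3 and P5424 cells, and the J1 line is not of the c57/Bl6 strain from which the reference genome comes. Cell type, preparation, strain and depth changed together between these libraries and cannot be told apart. Read counts of DNA hold no marker of cell identity, so the labelled cell types could not be checked. With 1 library per cell type there is no SD and no test between cell types.

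Ikaros, the zinc finger protein that *Ikzf1* encodes, is required for normal lymphocyte development. In a 4C profile, contacts are dense next to the bait and thin out with distance along the chromosome. They drop more sharply at the edges of topologically associating domains, which often lie at sites bound by CTCF. Beyond the domain, chromatin of like activity tends to meet more often.

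The bait lay at position 11583520 of chromosome 11 (mm9, NCBI37), 1.49 kb before the start of *Ikzf1*, and positions with higher coordinates, in the direction of *Ikzf1* transcription, are called downstream. Sequences of 4 fragments are shown, 3 by 1 end and the shortest in full, since the reads were counted on such ends. These are the bait fragment, the fragment with most reads within 1 Mb upstream in both libraries, the fragment with most reads over 1 Mb upstream in DN3, and the fragment with most reads over 1 Mb downstream in ES cells. All are the plus strand of mm9, and capitals mark DpnII sites (GATC) and Csp6I sites (GTAC).

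Bait fragment, chr11:11583893-11583952: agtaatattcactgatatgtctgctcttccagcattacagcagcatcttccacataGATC

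Near fragment of both libraries, chr11:11557680-11557739: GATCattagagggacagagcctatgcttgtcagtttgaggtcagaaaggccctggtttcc

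Far fragment of DN3, chr11:8625842-8625891: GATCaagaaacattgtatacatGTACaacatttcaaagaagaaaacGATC

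Far fragment of ES cells, chr11:13615307-13615366: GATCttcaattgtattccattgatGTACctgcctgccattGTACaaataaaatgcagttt

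The near fragment (11557680 to 11557816) lay 25.8 kb upstream of the bait in an intron of the lincRNA gene *Gm11999*, and held 14246 reads in DN3 and 13555 in ES cells. As a share of the reads over 15 kb from the bait, this was 0.934% in DN3 and 0.438% in the ES library. The far DN3 fragment (8625842 to 8625891) lay at -2958 kb, upstream, in no annotated gene, with 1985 reads in DN3. It had 0 reads in ES cells, which allows up to 0.969 RPM (reads scaled to a common total of all reads over 15 kb), and 0 in each P5424 library. The far ES fragment (13615307 to 13615641) lay 2.03 Mb downstream in no annotated gene, with 3513 reads in ES cells and 0 in DN3, which allows up to 1.97 RPM. Both limits treat PCR copies as separate reads, so they may be too low. The ES fragment with most reads over 1 Mb on either side (10274204 to 10274329, upstream) held 3757 reads in ES cells and 25 in DN3. How often covered fragments were shared is given by distance class further on.

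The DN3 library held 1788106 reads, of which 1525273 were over 15 kb from the bait, and the ES library held 3448437 and 3095991. At least 1 read was found on 7577 fragments (2.57%) in DN3 and on 10258 (3.47%) in ES cells. Such fragments are called covered. The median covered fragment over 1 Mb from the bait had 21 reads in DN3 and 32 in ES cells. Intervals below are exact 95% binomial (Clopper-Pearson) intervals, which treat PCR copies as separate reads and cover counting error only. Fragments also differed in how well they could be counted. Of the fragments within 1 Mb, 17.4% had no end whose outer 30 bases occur once among the DpnII ends of mm9. Of these, 2.20% were covered in DN3 and 4.75% in ES cells, against 36.5% and 70.7% of those with 2 such ends. Where this bears on a result, the value over fragments with at least 1 unique end is given.

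The reads of DN3 were packed close to the promoter, while those of ES cells spread over the next megabase. In DN3, 58.1% (58.1% to 58.2%) of the reads fell between 15 and 250 kb from the bait, against 34.7% (34.7% to 34.8%) in ES cells. Between 250 kb and 1 Mb the order was the opposite, with 4.42% (4.39% to 4.45%) in DN3 and 24.0% (23.9% to 24.0%) in ES cells. The nearest 50% of the reads lay within 174 kb in DN3 and within 541 kb in ES cells. Summed to 1 Mb, these opposite differences left 62.6% of the reads in DN3 against 58.7% in ES cells. The order of these sums depended on the scaling. After quantile normalization across both libraries they were 53.4% in DN3 and 62.3% in ES cells.

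By distance class, the read share of DN3 was 15.5% at 15 to 50 kb, 11.3% at 50 to 100 kb and 31.3% at 100 to 250 kb. The shares of ES cells were 9.77%, 6.70% and 18.3%. All 3 were higher in DN3, and the class at 100 to 250 kb took the most reads in both libraries. With both sides summed the order turned at 250 kb (downstream alone, at 125 kb), and DN3 held 3.53% at 250 to 500 kb and 0.894% at 0.5 to 1 Mb, where ES cells held 14.1% and 9.86%. Past 1 Mb, DN3 held 1.97% at 1 to 2 Mb and 4.43% at 2 to 5 Mb, and ES cells 6.63% and 10.4%. From 5 to 50 Mb the read shares of the libraries differed by 1.06 to 1.10 fold in the 3 classes. At 5 to 10 Mb this was the sum of sides with opposite orders, with 3.96% in DN3 and 2.15% in ES cells upstream, and 3.07% and 4.34% downstream. Over 50 Mb, DN3 again held the larger share, 9.59% (9.54% to 9.64%) against 3.37% (3.35% to 3.39%).

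The number of covered fragments does not grow with the copies of each, and the libraries differed in it by class. At 15 to 250 kb, 79.8% (77.4% to 82.1%) of 1158 fragments were covered in DN3 and 81.3% (79.0% to 83.6%) in ES cells, and the intervals overlap. At 0.5 to 1 Mb, 5.04% (4.21% to 5.98%) of 2479 fragments were covered in DN3 and 40.9% (38.9% to 42.8%) in ES cells. Drawn down to the total read number of DN3, the ES library would cover 39.1% of them. The P5424 libraries covered 6.13% to 15.1% of this class. At 5 to 10 Mb the covered shares were 5.47% in DN3 and 5.84% in ES cells. These summed sides of opposite order, with 6.78% in DN3 and 4.64% in ES cells upstream, and 4.53% and 6.70% downstream. At 10 to 20 Mb the covered shares were 2.51% in DN3 and 3.89% in ES cells, and at 20 to 50 Mb 2.38% and 2.56%. Over 50 Mb, 1.14% (1.09% to 1.20%) of 149303 fragments were covered in DN3 and 0.568% (0.530% to 0.607%) in ES cells. Here the deeper library covered less, and P5424 covered 0.630% to 0.833%.

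**Figure D1:**
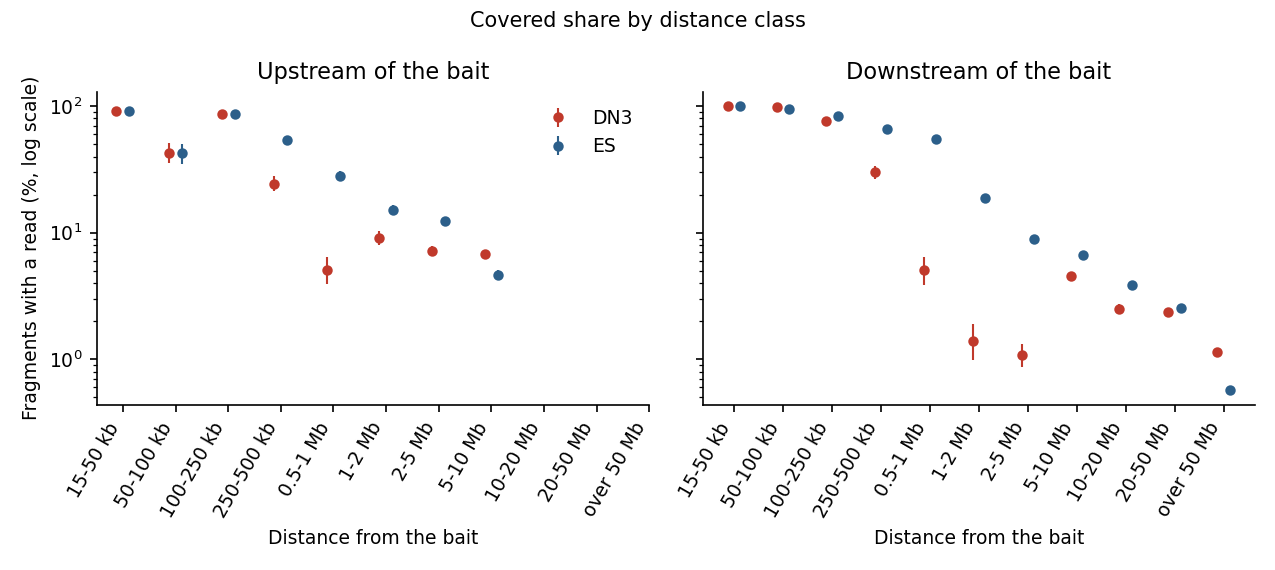
Share of fragments with at least 1 read (percent, log scale) by distance from the bait, upstream and downstream, in DN3 and ES cells (1 library each); bars are exact 95% binomial intervals. The libraries meet within 250 kb, ES cells lie above DN3 from 250 kb to 5 Mb, and downstream over 50 Mb DN3 (1.14%) lies above ES cells (0.568%).

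Decay with distance was steeper in DN3 up to 1 Mb and flatter beyond it. A line through log10 mean reads per fragment against log10 distance, over 9 bins from 15 kb to 1 Mb, had a slope of -1.54 in DN3 (SE 0.28) and -0.76 in ES cells (SE 0.09). These errors describe the scatter of bins around the line, and bins are not replicates. The slopes of the P5424 libraries ran from -1.29 to -1.18. The same order held on either side, with slopes of -1.36 in DN3 and -0.75 in ES cells upstream, and -1.70 and -0.74 downstream.

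From 1 to 10 Mb the slope was -0.15 (SE 0.29) in DN3 and -0.90 (SE 0.11) in ES cells. The downstream side of DN3 had no decay in this range. Its slope there was 0.67 (SE 0.43), against -0.86 (SE 0.13) in ES cells. From 10 to 100 Mb, which exists only downstream, it was -0.68 (SE 0.12) in DN3 and -1.35 (SE 0.29) in ES cells. The nearest 50% of the covered fragments lay within 12.6 Mb in DN3 and within 4.61 Mb in ES cells.

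**Figure D2:**
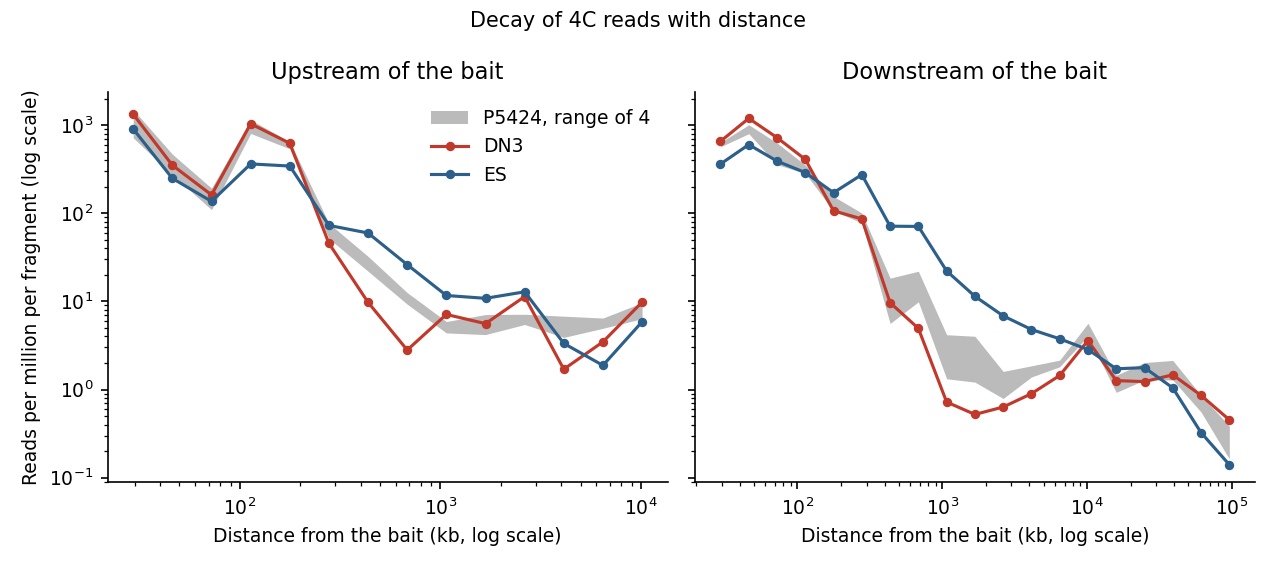
Mean RPM per fragment (log scale) against distance from the bait (kb, log scale) upstream and downstream, in DN3 and ES cells, with the range of 4 P5424 libraries in grey. Downstream, DN3 lies above ES cells up to about 100 kb and far below them between 1 and 5 Mb, and is higher again towards 10 Mb.

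The sides of the bait were not used alike. Within 1 Mb, the mean reads per fragment were higher upstream in DN3, with a log2 ratio of upstream to downstream of 0.45 (0.45 to 0.46). They were higher downstream in ES cells, where it was -0.46 (-0.46 to -0.45). The P5424 libraries, at 0.57 to 0.81, had the sign of DN3. Counting covered fragments in place of reads, the log2 ratio was -0.11 in DN3 and -0.49 in ES cells, and over fragments with a unique end it was 0.02 and -0.36. In DN3 the sides thus differed less in the fragments reached than in read numbers. Near the bait most fragments were covered, 87.1% upstream and 77.0% downstream at 100 to 250 kb in DN3. A large difference in reads could therefore not appear in the covered share there.

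The excess of upstream reads in DN3 came from 100 to 250 kb upstream. This interval holds the body of *4930415F15Rik* and also the IkE120 enhancer of the study. It took 25.5% (25.4% to 25.5%) of the DN3 reads and 11.6% (11.6% to 11.7%) of the ES reads on 371 fragments. Of its windows of 25 kb, that at 100 to 125 kb, outside *4930415F15Rik*, held most reads, 8.67% in DN3 and 3.05% in ES cells. The same distance downstream took 5.87% and 6.66% on 348 fragments. The log2 ratio was therefore 2.03 in DN3, 0.71 in ES cells and 1.76 to 2.31 in P5424. From 15 to 100 kb both libraries had more reads per fragment downstream, over the *Ikzf1* gene, with log2 ratios of -0.58 in DN3 and -0.42 in ES cells at 15 to 50 kb.

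Between 1 and 5 Mb the sides of DN3 differed most. Upstream, 795 of 10301 fragments were covered in DN3 (7.72%, 7.21% to 8.25%), and downstream 123 of 10639 (1.16%, 0.962% to 1.38%). In ES cells they were 13.1% (12.4% to 13.8%) and 11.4% (10.8% to 12.1%). The log2 ratio of reads per fragment was 3.10 (3.07 to 3.13) in DN3 and 0.05 (0.04 to 0.06) in ES cells. P5424 lay between them at 1.30 to 2.41. The ES value summed classes of opposite order, with -0.47 at 1 to 2 Mb and 0.36 at 2 to 5 Mb. Reads of DN3 downstream came back farther out, with 4.53% of fragments covered at 5 to 10 Mb against 1.08% at 2 to 5 Mb.

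The placement of gene starts differs between these sides more than their number, and its part in the asymmetry was not tested. The bins of 1 Mb whose centres lay 1.92, 2.92 and 3.92 Mb downstream hold 0 starts of protein-coding genes, and 1.26%, 0.986% and 0.499% of their fragments were covered in DN3. ES cells covered 13.9%, 10.1% and 6.83% of the same fragments. The next bin, at 4.92 Mb, holds 7 starts and was covered at 3.20% in DN3 and 9.77% in ES cells. Upstream, the bins centred at -1.08, -2.08, -3.08 and -4.08 Mb hold 0, 2, 5 and 2 starts, and were covered at 9.19%, 5.29%, 14.9% and 1.53% in DN3. In ES cells these bins were at 19.6%, 18.0%, 14.0% and 7.76%. The bin at -1.08 Mb lies partly within 1 Mb of the bait, unlike the downstream bins given, so the sides are not matched in distance. The longest stretch without DN3 reads within 5 Mb was 269 kb with 725 fragments, from 3499 to 3768 kb downstream, and the longest without ES reads was 38.9 kb.

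The distance at which contacts stopped was taken as the centre of the first run of 100 fragments, moving outward, of which under 50% were covered. Over all fragments, the upstream stop was 54.5 kb in DN3 and 55.1 kb in ES cells. At this place the chromosome holds many repeats, and 49.4% of the fragments from 50 to 100 kb upstream had a unique end. Among fragments with a unique end, a rule added after the data were seen, the upstream stop was 272 kb in DN3 and 551 kb in ES cells. The former lies inside *Zpbp*, which encodes a protein of the sperm acrosome, and the latter inside *Vwc2*, which encodes a secreted inhibitor of bone morphogenetic proteins. With ES reads drawn down to the DN3 number the stop in ES cells was 536 kb. The P5424 libraries stopped at 244 to 295 kb on this side.

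Downstream, the stop was 334 kb in DN3, inside *Grb10*, an imprinted gene for an adaptor that dampens insulin receptor signalling. Counting only fragments with at least 10 reads as covered, it was 221.6 kb in DN3, short of *Grb10*, and 416 kb in ES cells. With at least 1 read, the P5424 libraries stopped at 193 to 229 kb. In ES cells the stop with at least 1 read was 422 kb over all fragments and 907 kb over those with a unique end (896 kb when drawn down). Over fragments with a unique end, contacts of ES cells thus ran past *Cobl*, which encodes an actin nucleator, and those of DN3 ended before it. With a limit of 10% in place of 50%, fragments with a unique end stopped at 553 kb upstream and 449 kb downstream in DN3, and at 1883 kb and 1909 kb in ES cells. Neither library stopped altogether. The farthest covered fragment lay 110.1 Mb downstream in DN3 and 109.9 Mb in ES cells, where the chromosome ends at 110.3 Mb.

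The sharpest drop in coverage was at nearly the same place upstream and at different places downstream. It was measured as the largest difference between 100 fragments nearer and 100 farther within 1 Mb, over fragments with a unique end. Upstream, coverage dropped from 96% to 55% at 234 kb in DN3 and from 98% to 66% at 230 kb in ES cells, both inside *Zpbp*. In 3 of the 4 P5424 libraries it was at 227 to 233 kb, and in the other at 298 kb. Downstream, it dropped from 81% to 44% at 315 kb in DN3, inside *Grb10*, and from 87% to 60% at 409 kb in ES cells, 53.9 kb from *Grb10*. The drop in ES cells was a local dip. Their coverage was 50% at 450 to 475 kb, where only 23.3% of fragments had a unique end, and 87.0% again at 600 to 625 kb. The P5424 libraries dropped at 315 to 333 kb.

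A 12-letter string of the CTCF motif core (2 C, any 3 bases, 1 A, 5 G and 1 C, on either strand) was searched in mm9 after these drops were seen. It matched 8 times within 1 Mb of the bait and 929 times on the chromosome, and 16.7% of all windows of 25 kb hold a match. The outermost matches of the 8 are shown, since each was the match nearest to a drop, with the string in capitals and both on the plus strand.

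Upstream match, chr11:11362057-11362086: cgagcctcaCCTGCAGGGGGCgcccgcagc

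Downstream match, chr11:11989038-11989067: ttagacacaCCAGAAGGGGGCatcagattt

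The upstream match lay 221 kb from the bait within *Zpbp*, at its start, and 12.7 kb from the drop in DN3 and 8.36 kb from that in ES cells. The downstream match lay 406 kb from the bait in no annotated gene, 3.57 kb from the drop in ES cells, past which coverage rose again. The downstream drop in DN3 was 91.0 kb from any match. A match is a run of letters and not a bound site.

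**Figure D3:**
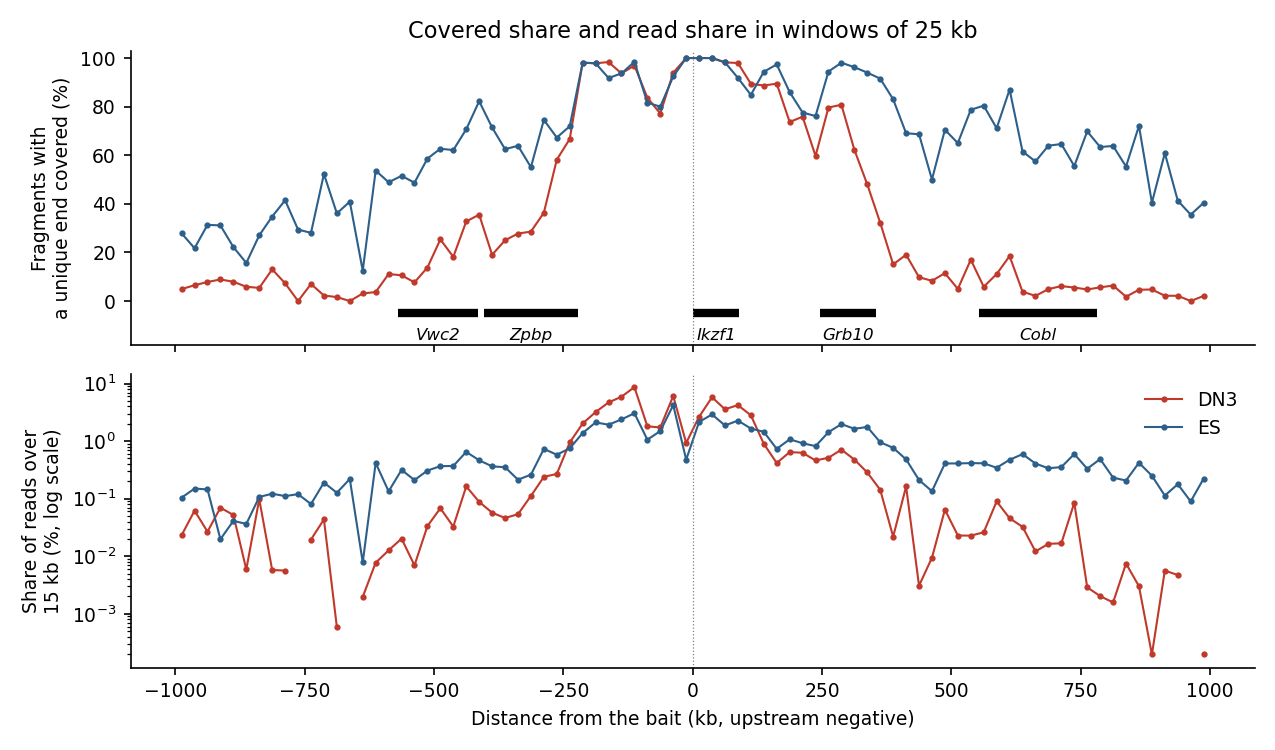
Upper panel, share of fragments with a unique end that were covered (percent), and lower panel, share of all reads over 15 kb (percent, log scale; gaps where a window had no reads), in 80 windows of 25 kb within 1 Mb of the bait in DN3 and ES cells. Both drop at about 225 kb upstream, and past 250 kb on either side the covered share of DN3 lies below that of ES cells in all 60 windows, while its read share is higher in 2 of them (-925 to -875 kb); bars mark genes.

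Among the windows of 25 kb, 17 of 80 had a higher read share in DN3, 12 upstream and 5 downstream. Of the 60 windows past 250 kb, 0 had a higher covered share in DN3. No reads of DN3 fell in 3 windows, while each held ES reads.

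The genes within 1 Mb were compared by their reads. Values are mean RPM per fragment of the gene, on fragments over 15 kb from the bait. *Ikzf1* (11585006 to 11672929, plus strand) had 950.0 in DN3 and 543 in ES cells, a ratio of 1.75, with 98.7% and 98.1% of its 156 fragments covered. *4930415F15Rik* had 566 and 339 (ratio 1.67), and *Fignl1*, which encodes an ATPase of DNA repair, had 437 and 259 (ratio 1.69). These genes, all within 250 kb, had similar covered shares in both libraries, as 96.3% and 97.2% of the fragments of *4930415F15Rik* were covered and 87.0% and 85.2% of those of *Fignl1*. *4930512M02Rik*, which lies in the repeat-rich stretch, had 214 and 172 (ratio 1.24).

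The other genes with reads had more reads per fragment in ES cells, and are given in order of the distance of their start from the bait. *Ddc*, the gene of dopa decarboxylase, had 128 in DN3 and 203 in ES cells, 1.59 fold more in ES cells. *Zpbp* had 43.1 and 70.7 (1.64 fold), and *Grb10* (11830511 to 11938686, minus strand) 91.7 and 315 (3.44 fold). *Vwc2* (11014226 to 11168934, plus strand) had 9.27 and 55.9 (6.03 fold), with 17.2% of 418 fragments covered in DN3 and 52.4% in ES cells. *Cobl* (12136611 to 12364963, minus strand) had 6.50 and 78.7 (12.1 fold), with 7.13% of 505 fragments covered in DN3 and 67.5% in ES cells. *Gm17624*, of 1 fragment, had no reads in either.

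Within 250 kb, where most fragments were covered in each library, nearly all that DN3 touched was also touched in ES cells, and at long range little was shared. Of the 1405 fragments covered in DN3 within 1 Mb, 91.3% were covered in ES cells, where 55.3% of all fragments in this range were covered, and these made up 46.8% of the 2739 covered in ES cells. Over 1 Mb, 433 fragments were covered in both, 7.02% of the 6172 of DN3 and 5.76% of the 7519 of ES cells, while 2.59% of all fragments there were covered in ES cells. The share of DN3 fragments also covered in ES cells was 94.8% at 100 to 250 kb, 88.8% at 250 to 500 kb, 66.4% at 0.5 to 1 Mb, 28.5% at 1 to 2 Mb, 8.32% at 5 to 10 Mb and 0.938% over 50 Mb. The share of all fragments covered in ES cells was lower in each of these classes and went down with it, from 85.4% to 59.7%, 40.9%, 16.9%, 5.84% and 0.568%. The single fragment at long range was thus mostly not seen again, and comparisons there rest on sums over many fragments.

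In bins of 1 Mb across the chromosome, coverage of ES cells declined more evenly with distance than that of DN3. Of 119 bins, 74 had a higher covered share in DN3 and 41 in ES cells. ES cells were higher in 16 of 20 bins within 20 Mb downstream, and DN3 in 48 of 60 bins beyond 50 Mb. From 20 to 50 Mb the bins of DN3 ran from 0.193% to 6.12% and those of ES cells from 0.537% to 4.74%. The 4 bins centred 24.9 to 27.9 Mb downstream hold 0 or 1 gene start each, and were covered at 0.344% to 0.614% in DN3 and at 2.28% to 4.03% in ES cells.

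From 5 to 50 Mb downstream, the 10 bins with 0 or 1 gene start had a median covered share of 0.485% in DN3 and 2.92% in ES cells, and 0 of them were higher in DN3. The 19 bins with 2 to 9 starts had medians of 2.20% and 3.82%, and 7 were higher in DN3. The 16 bins with 10 or more starts had medians of 2.94% and 1.82%, and 14 were higher in DN3. The P5424 medians were 0.552% to 0.739% in the bins with 0 or 1 start, 1.78% to 3.08% in those with 2 to 9 and 2.04% to 3.10% in those with 10 or more. Beyond 50 Mb, DN3 was higher in 32 of 40 bins with 10 or more starts (median 0.964%), in 16 of 17 with 2 to 9 (median 1.16%) and in 0 of 3 with 0 or 1 (median 0.263%). Across the 45 bins from 5 to 50 Mb, covered share (fragments with a unique end) and number of gene starts had Pearson r of 0.19 and Spearman rho of 0.47 in DN3, and -0.46 and -0.33 in ES cells. These bins share the decay with distance, their base composition and 1 library each, so the correlations only describe them. Over the 60 bins beyond 50 Mb they were -0.08 and -0.05 in DN3 and -0.18 and -0.14 in ES cells, and over all 109 bins more than 5 Mb away -0.07 and 0.08 in DN3 and -0.37 and -0.39 in ES cells. From 5 to 50 Mb, GC content, which was correlated with gene number (r 0.63), gave 0.34 and 0.38 in DN3 and -0.37 and -0.36 in ES cells. The parts of gene number and GC content were not separated.

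**Figure D4:**
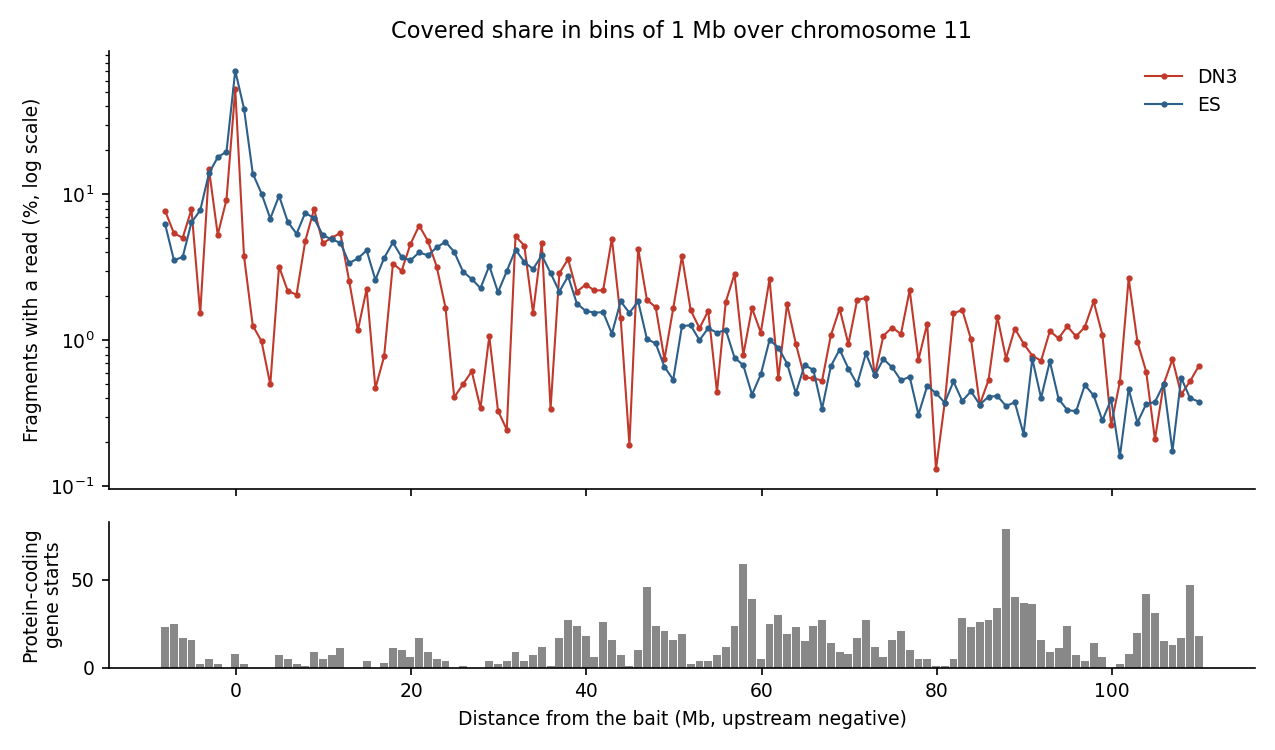
Share of fragments with at least 1 read (percent, log scale) in bins of 1 Mb against distance from the bait (Mb, upstream negative) in DN3 and ES cells, above the number of protein-coding gene starts in each bin. DN3 swings between 0.193% and 6.12% from 20 to 50 Mb, with its lowest bins where starts are few, while ES cells decline more evenly and lie below DN3 in most bins beyond 50 Mb.

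Fragments were also split by their distance from gene starts. From 5 to 50 Mb, fragments within 100 kb of a protein-coding start were covered at 4.05% (3.91% to 4.19%) in DN3 and 3.43% (3.31% to 3.57%) in ES cells. Fragments away from all starts were covered at 1.16% (1.07% to 1.27%) and 3.39% (3.22% to 3.56%). ES cells thus covered both kinds alike, and DN3 covered the gene-distant kind 2.91 fold less than ES cells. The P5424 libraries covered 3.10% to 4.10% near starts and 0.945% to 1.30% away from them. Beyond 50 Mb the shares near and away from starts were 1.24% and 0.735% in DN3 and 0.568% and 0.566% in ES cells.

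The regions with most contacts over 5 Mb away were in part the same in both libraries. The 5 bins with the highest covered share in DN3 lay 8.92, 11.9 and 20.9 Mb downstream and 5.08 and 8.08 Mb upstream, at 5.43% to 7.93%. Of these, 3 were also among the 5 highest of ES cells. The genes nearest to the fragment with most reads in the DN3 bins were, in the order of these distances, *Sertad2*, *Usp34*, *Stk10* (a kinase of lymphocytes), *Ramp3* and *Sec14l3*. In the ES bins they were *Actr2* (in 2 bins), *C1d* (183 kb away), *Adcy1* and *Sfi1*.

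Lists of genes on chromosome 11 were compared over the fragments within 100 kb of their starts. Their members were chosen with earlier results of these data known, so the counts are a description. From 5 to 50 Mb, fragments at 14 lymphoid genes were covered at 5.70% (5.07% to 6.38%) in DN3 and 3.33% (2.85% to 3.87%) in ES cells. More fragments were covered in DN3 at 10 of these genes and in ES cells at 3 (*Ebf1*, *Il4* and *Il13*, each by 1 or 2 fragments), with 1 equal, while 2.95% of all fragments in this range were covered in DN3 and 3.42% in ES cells. The windows of some of these genes share fragments, as those of *Il4* and *Il13* do. Around *Lcp2*, which encodes the adaptor SLP-76 of T cell receptor signalling, 50 of 520 fragments were covered in DN3 and 21 in ES cells. At *Rel*, an NF-kB subunit gene, it was 45 and 27 of 514.

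A higher share in DN3 was also found at genes of other kinds. The 4 broadly expressed genes in this range were covered at 4.58% (3.63% to 5.70%) in DN3 and 2.71% (1.99% to 3.61%) in ES cells. The 3 alpha globin genes, which share their fragments, were at 7.92% (5.74% to 10.6%) and 3.67% (2.22% to 5.67%). Developmental regulators had the opposite order, with 3.40% (2.54% to 4.45%) in DN3 and 5.14% (4.07% to 6.38%) in ES cells over 4 genes, of which 3 had more covered fragments in ES cells and 1 was equal, and the intervals overlap. Among them *Meis1*, a homeobox gene, had 31 and 40 of 454 fragments covered, and *Otx1*, a homeobox gene of the brain, 16 and 33 of 505. Both lie within 20 Mb downstream, where ES cells were higher in most bins, but the part of distance was not tested. Of other listed genes in that range, *Rel* (12.1 Mb) and *Xpo1* (11.6 Mb, 29 and 26 of 534) had more covered fragments in DN3. *Bcl11a* (12.4 Mb) had 26 in each library. *Wnt3a* and *Wnt9a*, which encode secreted Wnt ligands, had 4 and 4 of 501 and 3 and 4 of 503, in windows that share fragments.

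Beyond 50 Mb the 4 lists with members there had a higher covered share in DN3, and so had all fragments together (1.14% and 0.568%, a ratio of 2.01). The share was 1.52% (1.20% to 1.89%) in DN3 and 0.384% (0.235% to 0.593%) in ES cells at 12 lymphoid genes, and 1.29% and 0.595% at 20 broadly expressed genes. At 11 keratin genes, which serve epithelia, it was 0.899% (0.525% to 1.44%) and 0.159% (0.0327% to 0.463%), and their windows share fragments. At 20 developmental genes it was 0.735% (0.510% to 1.03%) and 0.584% (0.385% to 0.848%), and the intervals overlap. More fragments were covered in DN3 at 11 of the 12 lymphoid genes and in ES cells at 1, *Tbx21* (2 and 3 of 531 fragments). More were covered in DN3 also at 11 of 11 keratin, 13 of 20 broadly expressed and 13 of 20 developmental genes. In ES cells more were covered at 0, 5 and 6 of these. The windows of some lymphoid, broadly expressed and developmental genes, such as the *Hoxb* genes, also share fragments, so these counts of genes repeat some loci. Of the 12 lymphoid genes only *Ccr7*, which encodes the receptor that guides T cells to lymph nodes, had no ES reads. Around it, 13 of 494 fragments were covered in DN3 and 0 in ES cells, which allows up to 0.607%. Some genes of other lists also had no ES reads. Among them were the broadly expressed *Nme1* (22 of 445 fragments in DN3) and *Nme2* (22 of 448), which are neighbours whose windows share fragments.

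**Figure D5:**
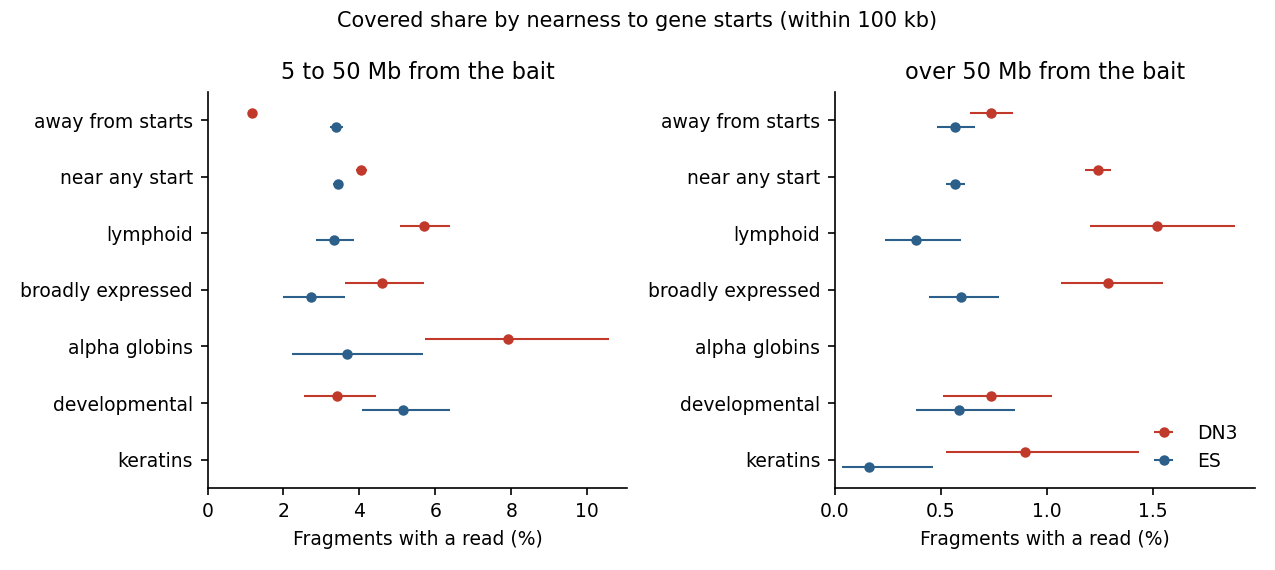
Share of fragments with at least 1 read (percent) for fragments away from or within 100 kb of any protein-coding start and within 100 kb of the starts of 5 gene lists, in DN3 and ES cells, at 5 to 50 Mb and over 50 Mb from the bait; bars are exact 95% binomial intervals, and a list with no gene in a range is blank. At 5 to 50 Mb, DN3 is at 1.16% away from starts and 4.05% near them, and ES cells at 3.39% and 3.43%.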

How the data were processed

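For 4C-seq, nuclei were digested with DpnII, ligated, digested with Csp6I and circularized, and partners of the bait were amplified by PCR and sequenced. The authors removed the bait sequence from reads (Sabre), aligned the rest to mm9 (Bowtie, version 1.0.0 in the submitters' processing notes) and deposited raw counts for each DpnII fragment, neither normalized nor freed of PCR copies. The notes name GRCm38 as a build, but all 295446 deposited positions matched midpoints of DpnII fragments of NCBI37 (mm9), which was used with the GENCODE M1 annotation. Reads on other chromosomes and the H3K27ac peaks were not analysed here.

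RPM values are relative to all reads over 15 kb from the bait. The read length is not given in the sources used here, and unique ends were defined on 30 bases. Slopes used 5 bins per decade. Scripts were tested on simulated data and run with matplotlib 3.10.9, scipy 1.17.1, pandas 2.3.3 and numpy 2.4.6 under Python 3.11.15. The rule for fragments uses position only, but it, the gene lists and the comparisons were chosen with earlier results of these data known. Named genes are all protein-coding genes within 1 Mb, list members, and those at stops, drops and the 5 highest bins. The list members named were picked after their values were seen, the others are given only in counts, and the values of 1 member were left out. Alternatives covered the distance left out, scaling, fragment kinds, read minimums, window sizes and depth. The unique-end rule, the limit of 10% and the CTCF-like string were added after the data were seen.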

Additional observations from a re-analysis of the deposited data

How the results depend on the processing

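Values are differences DN3 minus ES (stop distances ES minus DN3; shared fragments and bins higher in DN3 as percentages), recomputed for 14 results under 47 alternatives in all, of which 24 stayed within the error, 22 moved beyond it and 1 turned sign. The read share within 1 Mb differed by 3.83 percentage points, and by 1.45 with 50 kb left out, 2.42 with fragments capped at the 99th percentile, 3.56 on fragments with a Csp6I site and 2.21 without the 10 fragments with most reads of each library. It turned to -8.83 with quantile normalization, and the cause was not tested. The covered share over 1 Mb differed by -0.464 points, and by -0.261 with ES reads drawn down to the DN3 total. The log2 ratio of upstream to downstream differed by 0.91, and by 0.87 capped, 0.37 on covered fragments, 1.25 with 50 kb left out, 0.90 on fragments with a Csp6I site and 0.90 on those with a unique end. The upstream stops differed by 0.581 kb, and by 254 kb with a limit of 25%, 345 kb with 10%, 279 kb on fragments with a unique end and 264 kb when ES was also drawn down. The downstream stops differed by 87.1 kb, and by 195 kb with at least 10 reads (221.6 kb in DN3), 31.4 kb with a limit of 10%, 572 kb on fragments with a unique end and 562 kb when also drawn down. With at least 10 reads, the share of covered DN3 fragments also covered in ES cells was 88.4% within 1 Mb and 5.58% over it, in place of 91.3% and 7.02%. Within 50 kb of their starts, lymphoid genes differed by 2.26 points in place of 1.74, and alpha globins by 7.75 in place of 4.25. The difference between the slopes to 1 Mb, -0.78, stayed within its error under the 5 alternatives (-0.88 to -0.53), though on covered fragments in place of reads the slopes themselves were -0.74 in DN3 and -0.21 in ES cells. With bins of 2 Mb, 66.7% of bins were higher in DN3, in place of 62.2%. No paired analysis was possible because each cell type has 1 library. Depth limits single fragments at long range, and 10.0% of the covered fragments over 1 Mb in DN3 and 10.6% in ES cells had 1 read.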

Other observations

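Longer fragments were covered more often in both libraries. Over 1 Mb from the bait, fragments of at most 100 bases were covered at 1.29% in DN3 and 1.61% in ES cells, and those over 800 bases at 2.99% and 3.43%. Fragments with a Csp6I site, 44.5% of those over 1 Mb, were covered at 2.55% and 3.02%, and the others at 1.78% and 2.24%. ES cells were above DN3 in each of these kinds, by 1.15 to 1.36 fold.

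The bait fragment itself, left out of all comparisons with the rest of the 15 kb around the bait, held 43804 reads in DN3 and 51078 in ES cells. Reads within 15 kb made up 14.7% of the DN3 library, 10.2% of the ES library and 13.1% to 20.0% of the P5424 libraries. In both unstimulated P5424 libraries the bait fragment had a count of 0. These libraries list 295445 (wt) and 295444 (IkE120 deletion) of 295446 fragments, so this 0 cannot be told from a fragment not listed. In the stimulated P5424 libraries, which list all 295446, the bait fragment had 26472 (wt) and 74231 (IkE120 deletion) reads. The P5424 range thus mixes libraries with and without counted reads of the bait fragment.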
